A study of Mus musculus with 12 samples.

Results

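Single-nucleus RNA sequencing (snRNA-seq) of the left hippocampus of female mice held nuclei with the transcripts of striatal D1 medium spiny neurons (MSNs), and these nuclei are described here. A nucleus with 500 to 10000 detected genes was taken as a D1 nucleus when it had at least 1 unique molecular identifier (UMI) of Gad1 or Gad2, at least 1 of Rgs9, at least 3 of Pde10a and at least 1 of Drd1, none of Drd2, Adora2a, Slc17a7 or Slc17a6, and fewer than 2 of Mobp. The rule found 3796 D1 nuclei among 184957 nuclei, or 2.05%, in 12 libraries. The nuclei were selected on the UMIs of these 10 genes in the same data, so their levels are given as a description and were not tested.

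The libraries came from 3xTg-AD mice, a model of Alzheimer's disease (AD), and from wild-type (WT) littermates, with 3 libraries for each genotype at 6 months and at 12 months. The 3xTg-AD mice, on a B6;129 background, carry the transgenes of Tg(APPSwe,tauP301L)1Lfa, human APP with the Swedish mutation and human tau with P301L, both driven by the neuronal Thy1 promoter. Nuclei were sorted by flow cytometry before 10x Genomics 3′ libraries were made. Each library is 1 sample in the labels, and replicates are named here by the number in their label.

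MSNs are the GABAergic projection neurons of the striatum and are not a cell type of the hippocampus proper. D1 MSNs carry the dopamine receptor Drd1, which acts through the G protein subunit Gnal and adenylyl cyclase Adcy5 to raise cyclic AMP, make the peptides of Tac1 (substance P) and Pdyn (dynorphin), and form the direct pathway to the basal ganglia output nuclei. D2 MSNs carry Drd2 and the adenosine receptor Adora2a, make the enkephalin of Penk, and form the indirect pathway. D2 nuclei were taken here by the same limits with Drd1 at 0 and at least 1 UMI of Drd2 or Adora2a, which gave 4126 nuclei.

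The D1 nuclei had a median of 3089 genes and 8143 UMIs. Most had little margin at the Drd1 limit, since 2268 of them (59.7%) had exactly 1 Drd1 UMI. At the Pde10a limit, 105 D1 nuclei had exactly 3 UMIs and 106 nuclei missed the rule only by having 2. Among the 16279 nuclei that met the shared limits, 158 had UMIs of Drd1 together with Drd2 or Adora2a, and 8199 had none of these 3 receptors. Total UMIs per library ran from 79177051 to 128323908, and UMIs in D1 nuclei ran from 119135 in WT 12-month replicate 4 to 6644641 in 3xTg-AD 12-month replicate 2. No D1 nucleus shared its barcode with a D1 nucleus of another library. Scrublet called 303 D1 nuclei doublets (7.98%), against 6.79% of all nuclei.

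The label of these nuclei held in 10 libraries and failed in 2. Of the shared MSN genes, 14 were not used by the rule, among them Ppp1r1b (DARPP-32, which relays dopamine signals to protein phosphatase), the transcription factors Bcl11b, Foxp1, Meis2 and Rarb. Their summed level was between 6398 and 9025 counts per 1000000 UMIs (CPM) in 10 libraries, but 1654 CPM in WT 12-month replicate 4 and 1672 CPM in WT 12-month replicate 12. In these 2 libraries, which held 12 and 21 D1 nuclei, Ppp1r1b had no UMI. Rarb was at 16.8 and 203 CPM there, against 1085 to 1489 CPM elsewhere. Tac1 was at 0 and 8.64 CPM, against 90.1 to 209 CPM. The summed level of 8 interneuron markers was 1410 and 1352 CPM in the 2 libraries, above the 524 to 992 CPM of the others. Most of this sum was Adarb2, at 1360 and 972 CPM against 450 to 888 CPM elsewhere, a gene that was also high in a retained sub-cluster, while Sst was at 0 and 272 CPM. The summed level of 5 thalamic and hypothalamic markers was 361 and 177 CPM in the 2 libraries, against 35.1 to 132 CPM elsewhere. Only replicate 8 among the WT 12-month libraries, with 53 D1 nuclei, had an MSN profile. The gene comparisons at 12 months are therefore given with and without these 2 libraries. They are called by the rule that chose them, and not MSNs.

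**Figure D1:**
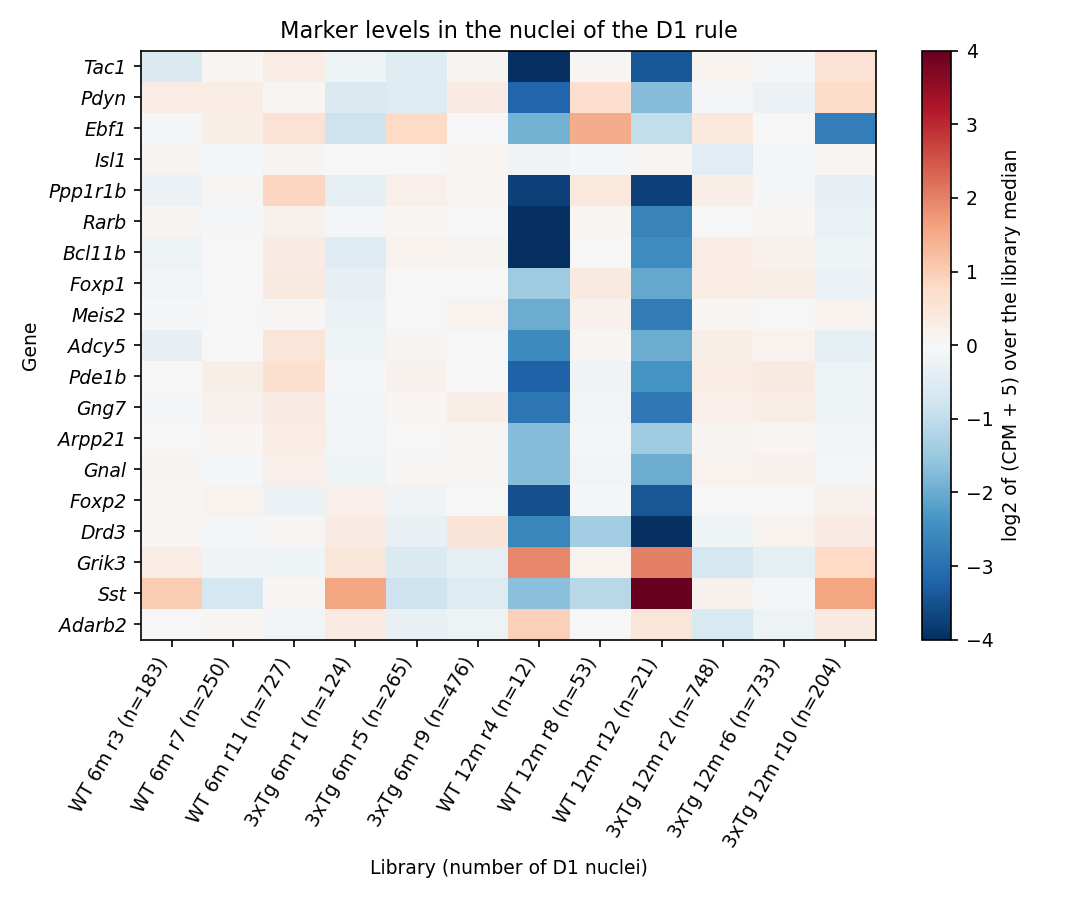
Levels of marker genes (rows) in the D1 nuclei of each library (columns, with the number of D1 nuclei), as log2 of (CPM + 5) over the median of the 12 libraries, limited to the range from −4 to 4. WT 12-month replicates 4 and 12 are low in Tac1, Ppp1r1b, Rarb, Bcl11b and Foxp2, while Ebf1 is lowest in 3xTg-AD 12-month replicate 10.

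Markers of other cells varied between the other 10 libraries. The summed level ran from 115 to 487 CPM for 5 astrocyte markers, from 67.2 to 219 CPM for 5 oligodendrocyte markers, and from 24.6 to 42.1 CPM for 4 microglial markers. The highest astrocyte and oligodendrocyte sums were in 3xTg-AD 12-month replicate 10. Hippocampal excitatory markers summed to 828 to 1542 CPM. Most of this sum was Zbtb20, with 449 to 6184 UMIs per library, while no other marker of the list had more than 40 UMIs. The part of free RNA and of doublets in these levels was not tested.

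The D1 nuclei fell into 16 sub-clusters, which were described by their leading genes and not tested. In 10 of them, holding 3232 nuclei (85.1%), doublets were at most 30% and the shared MSN genes at least 0.5 times the level of the median sub-cluster, limits that were set after the sub-clusters were seen. Of the 6 others, sub-cluster 15 was below the limit on MSN genes and 5 were above the limit on doublets. They included sub-cluster 5, with 374 nuclei, 36.4% doublets and the interneuron-associated genes Chrm3 and Nxph1 in the lead. In sub-cluster 5, 3 of 8 interneuron markers and 3 of 5 thalamic and hypothalamic markers were at least 1 log2 unit above the rest. They also included small sub-clusters led by astrocyte, oligodendrocyte, precursor or microglial genes. Sub-cluster 5 held 10 of the 12 nuclei of WT 12-month replicate 4 and 19 of the 21 of replicate 12, and the retained sub-clusters held 0 and 1. In WT 12-month replicate 8, 45 of 53 nuclei were retained.

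The retained sub-clusters differed by genes known to vary over the striatum. Sub-clusters 1 and 3, with 760 and 444 nuclei, had the highest levels of the transcription factor Ebf1 (452 and 448 CPM), with the calcium buffer Calb1, a gene of the striatal matrix, at 177 and 153 CPM. Sub-cluster 3 was led by the cannabinoid receptor Cnr1 (192 CPM, against 39.1 CPM in all other D1 nuclei), and all 3 dorsolateral markers, Cnr1, Gpr155 and Coch, were at least 1 log2 unit higher in it than in the rest. Sub-cluster 2, with 617 nuclei, was led by the semaphorin receptor Nrp2 (202 against 49.8 CPM) and had Ebf1 at 12.2 CPM. Sub-cluster 7, with 239 nuclei, had 3 of 7 patch (striosome) markers raised by that measure, with the opioid receptor Oprm1 at 208 CPM and Kremen1 at 43.0 CPM, and the matrix gene Id4 at 1.63 CPM, while sub-cluster 4 had 4 of the 7 raised.

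Other sub-clusters set themselves apart by peptides and receptors. Sub-cluster 4, with 374 nuclei, was led by the receptor kinase gene Alk (725 against 49.1 CPM) and had 5 of 6 markers of eccentric D1 neurons raised, of which sub-clusters 10 and 12 had 3 each. It also had 3 of 5 D2 MSN markers raised, with Penk at 135 CPM, none of the 8 D1 MSN markers raised, and Adarb2 at 3229 CPM. Of 6 markers of amygdala intercalated neurons, which include Foxp2, it had 2 raised, and sub-clusters 8, 10 and 12 had 1 each. In sub-cluster 4 Foxp2 was at 3235 CPM and Isl1 at 2.02 CPM, against 27.6 to 211 CPM for Isl1 in the other 9 retained sub-clusters. Sub-cluster 8, with 207 nuclei, was led by the thyrotropin-releasing hormone receptor Trhr (102 against 4.91 CPM) and had 4 of 7 ventral and medial markers raised, together with the peptide gene Cartpt at 117 CPM. Sub-cluster 11, with 88 nuclei, had 13 of 14 immediate-early genes raised, with Nr4a3 at 230 against 8.66 CPM, and Pdyn at 315 CPM. Sub-cluster 12, with 40 nuclei, had the highest Isl1 (211 CPM), Drd3 (478 CPM) and Tac1 (422 CPM) and no Pdyn UMI.

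The mixture of sub-clusters changed from library to library within groups. Over the 10 libraries with at least 25 D1 nuclei, sub-clusters 1 and 3 together made up 4.0% to 60% of the retained nuclei. They were 22.1%, 37.7% and 44.9% in WT 6-month replicates 3, 7 and 11, and 16.5%, 57.5% and 33.2% in 3xTg-AD 6-month replicates 1, 5 and 9. At 12 months they were 60% in WT replicate 8, and 41.2%, 33.6% and 4.0% in 3xTg-AD replicates 2, 6 and 10. Sub-clusters 6 and 8 made up 64.7% of 3xTg-AD 12-month replicate 10, against 6.67% to 31.2% of the others. In the same library Ebf1 was at 20.5 CPM over all D1 nuclei, Nnat (neuronatin) at 652 CPM and Stard5 at 174 CPM, whereas the other 9 had 92.0 to 476 CPM, 127 to 283 CPM and 20.0 to 88.3 CPM. The groups overlapped at 6 months, and the spread within WT mice at 12 months could not be measured from 1 library.

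**Figure D2:**
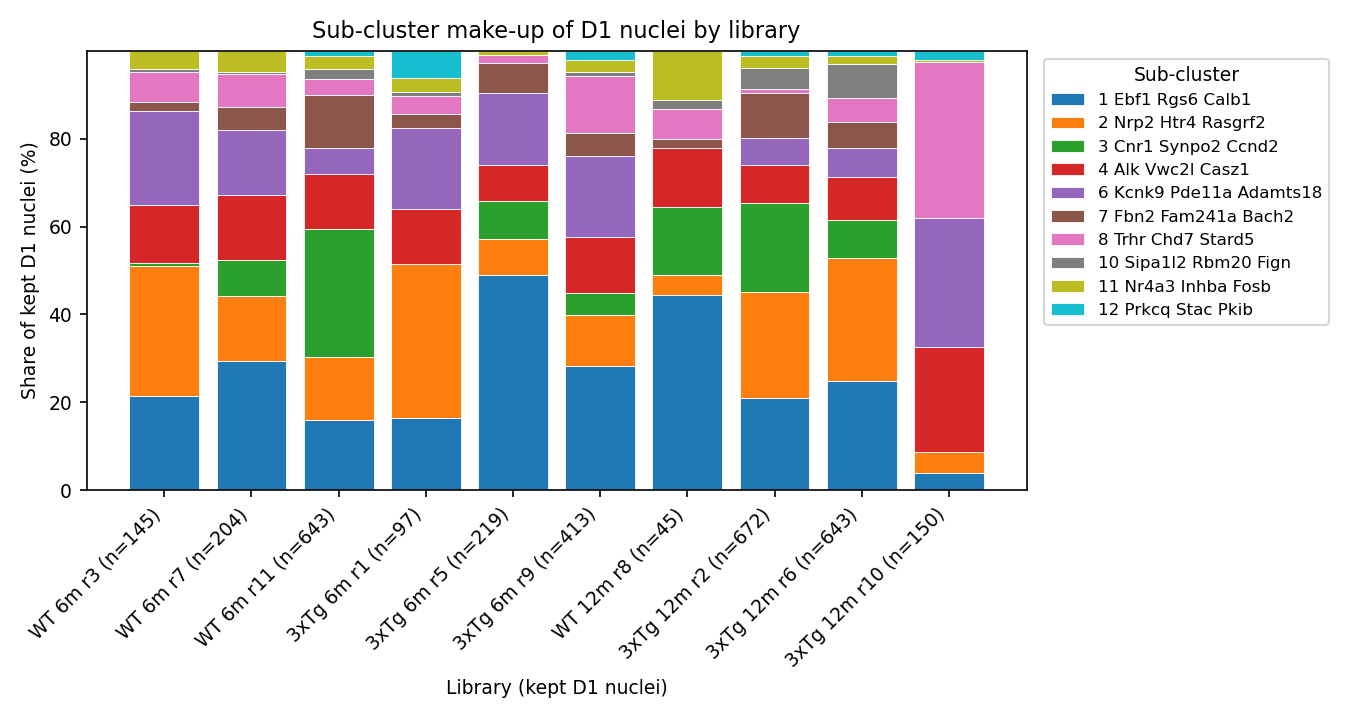
Share of each retained sub-cluster (y axis, %) among the retained D1 nuclei of the 10 libraries with at least 25 of them (x axis, n is the number of nuclei), with 3 leading or marker genes in the legend. 3xTg-AD 12-month replicate 10 has no nucleus of sub-clusters 3 and 7, and sub-clusters 6 and 8 make up 64.7% of it.

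D1 nuclei made up a share of nuclei that varied more between libraries of a group than between the genotypes at 6 months. In WT mice at 6 months they were 1.51%, 1.56% and 4.61% of nuclei in replicates 3, 7 and 11. In 3xTg-AD mice at 6 months they were 0.875%, 1.67% and 2.66% in replicates 1, 5 and 9, so the groups overlapped. The means were 1.74% ± 0.896 in 3xTg-AD and 2.56% ± 1.77 in WT mice (SD, n = 3), with a two-sided exact permutation p of 0.7 (adjusted p = 0.7 over 6 comparisons of shares).

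At 12 months every 3xTg-AD library held a larger share than every WT library. WT replicates 4, 8 and 12 held 0.0665%, 0.401% and 0.185%, with exact 95% binomial intervals of 0.0344% to 0.116%, 0.30% to 0.524% and 0.115% to 0.283%, which cover counting error only. 3xTg-AD replicates 2, 6 and 10 held 4.97%, 4.67% and 1.03%. The means were 3.55% ± 2.19 and 0.217% ± 0.169 (SD, n = 3), and the exact permutation p of 0.1 (adjusted p = 0.15) is the smallest that 3 against 3 libraries allow. The difference between the ages in the effect of genotype, 4.16 percentage points, had an exact permutation p of 0.08 (adjusted p = 0.15). As a share of inhibitory nuclei it was 11.7 percentage points, with an unadjusted exact permutation p of 0.045. Dentate granule nuclei, counted by Prox1 and Slc17a7, made up 0.659%, 0.717% and 0.904% of nuclei in the 3 libraries with the most D1 nuclei, and 1.34% to 2.55% in the other 9. WT replicate 8 alone was also below every 3xTg-AD library. The part of the dissection in these shares was not tested.

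D1 nuclei were 45.2% ± 1.18 of D1 and D2 nuclei in WT and 48.5% ± 2.42 in 3xTg-AD mice at 6 months (SD, n = 3, exact permutation p = 0.2, adjusted p = 0.24). At 12 months the WT replicates 4, 8 and 12 had 22.2%, 37.9% and 23.1%, and the 3xTg-AD replicates 2, 6 and 10 had 50.2%, 52.6% and 51.4% (exact permutation p = 0.1, adjusted p = 0.15). This share is set by the UMIs of Drd1, Drd2 and Adora2a that the rule read. Over both ages, D1 nuclei were 49.97% ± 2.33 in 3xTg-AD against 36.5% ± 11.1 in WT mice (SD, n = 6), with an exact permutation p of 0.00433 (adjusted p = 0.026). This test included WT 12-month replicates 4 and 12, whose D1 nuclei lacked an MSN profile and whose D2 nuclei also had low summed MSN genes (1359 and 1717 CPM). Without these 2 libraries the WT mean was 43.4% ± 3.82 (n = 4) and the exact permutation p 0.019. Both tests pooled the ages, and in the second of them replicate 8 was the only WT library of 12 months. In WT 12-month replicate 8, which stayed in, the D2 nuclei had the lowest summed MSN genes of the 10 libraries (4443 CPM) and interneuron markers at 1485 CPM, against 1694 and 1497 CPM in replicates 4 and 12 and 207 to 990 CPM in the other 9, and the part of these nuclei in its share of 37.9% was not tested. With all nuclei thinned to 2000 UMIs, which left 1, 9 and 0 D1 nuclei in the WT 12-month replicates 4, 8 and 12 and 12 to 146 in the other libraries, the difference was 7.33 percentage points with p = 0.411 by the exact permutation test.

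**Figure D3:**
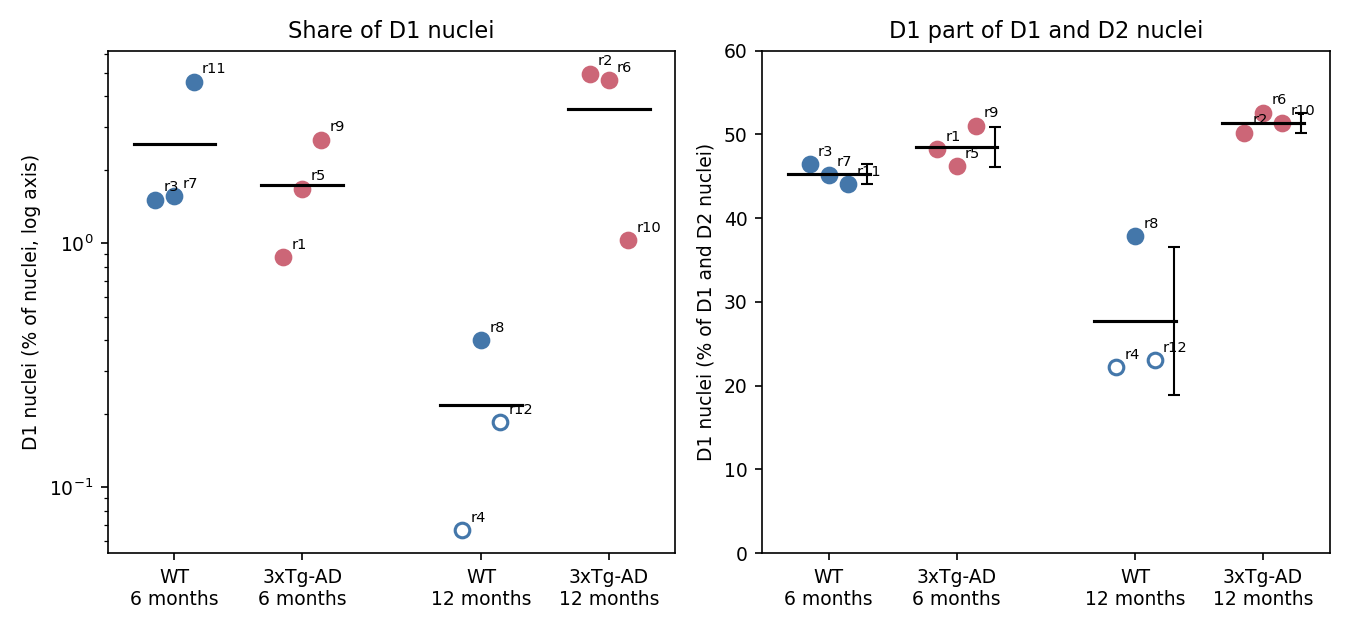
Left, D1 nuclei as a percentage of nuclei (log axis), and right, as a percentage of D1 and D2 nuclei, by genotype and age. Points are libraries with their replicate numbers, horizontal lines are means, bars on the right are ± 1 SD (n = 3), and open points are WT 12-month replicates 4 and 12, which hold 12 and 21 D1 nuclei. All 3 3xTg-AD libraries at 12 months lie above all 3 WT libraries in both panels.

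The comparison of D1 with D2 nuclei within libraries gave the clearest differences. It asked which genes accompany the receptor by which the nuclei were chosen, in summed counts of the 2 kinds of nuclei with library as a block. Of 14162 genes tested, 1492 (10.5%) passed both limits for a call (adjusted p below 0.05, and a log2 fold change beyond 0.2 in size), 679 (4.79%) higher and 813 (5.74%) lower in D1 nuclei. Over the 10 libraries other than WT 12-month replicates 4 and 12, 1587 genes were called. Adjusted p values in the following are from the quasi-likelihood test of edgeR with Benjamini-Hochberg adjustment. Levels are given as the lowest, median and highest CPM of those 10 libraries, and compared only for the same gene.

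Of the 7 tested D1 genes in the list, 6 were higher in D1 nuclei, with a median log2 fold change of 3.34 against −0.00139 over all genes tested. Tac1 was at 90.1, 143 and 209 CPM in D1 nuclei and at 7.46, 10.98 and 17.3 CPM in D2 nuclei, a log2 fold change of 3.52 ± 0.10 (SE, adjusted p = 4.32e-17). Pdyn was at 24.9, 46.3 and 70.3 CPM against 0, 1.38 and 4.46 CPM (log2 fold change 4.70 ± 0.15, adjusted p = 4.32e-17). The groups did not overlap for either peptide gene in these libraries. The orphan transporter gene Slc35d3 had a log2 fold change of 4.05, Ebf1 of 3.34, the LIM-homeodomain factor Isl1 of 1.98 and the mitochondrial serine transporter Sfxn1 of 1.05. Eya1, with 0.22, was not called (adjusted p = 0.328), and the muscarinic receptor Chrm4 was too low to be tested, with 68 UMIs in all D1 nuclei and 5 in all D2 nuclei.

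All 5 tested D2 genes of the list were lower in D1 nuclei, with a median log2 fold change of −3.06. Penk was at 7.34, 20.1 and 39.8 CPM in D1 nuclei and at 152, 225 and 395 CPM in D2 nuclei (log2 fold change −3.44 ± 0.14, adjusted p = 6.25e-15), with no overlap. The orphan receptors Gpr6 and Gpr52 had log2 fold changes of −3.95 and −3.01, the transcription factor Sp9 −2.92 and the kainate receptor subunit Grik3 −3.06. The opioid receptor genes lay on both sides. The delta receptor Oprd1 was lower in D1 nuclei (1.22, 3.22 and 6.48 against 27.1, 48.3 and 52.2 CPM, log2 fold change −3.58), while the kappa receptor Oprk1 was higher (16.5, 42.1 and 59.3 against 9.95, 20.6 and 31.4 CPM, log2 fold change 0.85).

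The sequences before the starts of Pdyn, higher in D1 nuclei, and of Gpr6 and Oprd1, lower in D1 nuclei, show the upstream DNA of genes on both sides of the comparison. They are the 250 bases before the RefSeq start in GRCm38.p6, in the direction of the gene, in lower case, and lie outside the GENCODE gene bodies. Capitals mark matches to TGACG, the half-site of the cyclic AMP response element, on either strand. The windows are chr2:129699939-129700188 (minus strand) for Pdyn, chr10:41072291-41072540 (minus strand) for Gpr6, chr4:132144487-132144736 (minus strand) for Oprd1.
Pdyn: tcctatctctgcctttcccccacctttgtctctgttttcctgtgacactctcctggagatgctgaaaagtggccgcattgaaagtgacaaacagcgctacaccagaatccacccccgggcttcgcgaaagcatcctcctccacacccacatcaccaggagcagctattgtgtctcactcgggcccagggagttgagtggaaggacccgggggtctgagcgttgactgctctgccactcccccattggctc
Gpr6: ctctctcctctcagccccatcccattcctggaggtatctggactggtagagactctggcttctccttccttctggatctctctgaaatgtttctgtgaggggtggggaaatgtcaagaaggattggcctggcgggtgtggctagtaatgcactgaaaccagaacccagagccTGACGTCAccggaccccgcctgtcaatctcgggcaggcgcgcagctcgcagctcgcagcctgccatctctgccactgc
Oprd1: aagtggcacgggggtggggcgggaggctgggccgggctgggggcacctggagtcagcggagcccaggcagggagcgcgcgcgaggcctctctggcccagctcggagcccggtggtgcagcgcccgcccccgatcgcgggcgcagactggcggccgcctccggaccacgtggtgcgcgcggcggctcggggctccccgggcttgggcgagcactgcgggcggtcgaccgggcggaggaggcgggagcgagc

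In the windows printed, Gpr6 had 1 full element, TGACGTCA, which reads as the half-site on each strand, and neither Pdyn nor Oprd1 had a half-site. Tac1 and Isl1, higher in D1 nuclei, each had 2 half-sites in windows that are not printed because they reach into the annotated gene. Ebf1, higher in D1 nuclei, had 0 half-sites in a window inside its annotated gene. The window of Grik3, lower in D1 nuclei, also had 0. Across promoters of the same length, TGACG was found in 25.1% of 486 genes higher in D1 nuclei, 19.8% of 601 genes lower in D1 nuclei, and 27.1% of 10590 tested genes. The full element was found in 2.88%, 1.997% and 2.79% of the same sets. Both were searched on both strands, and over all 27025 promoters their shares were 17.9% and 1.62%.

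The 15 higher genes with the smallest adjusted p and the same sign in every library included Cntnap3, a neurexin-like adhesion protein, at 111, 164 and 240 CPM in D1 nuclei against 24.1, 35.3 and 42.5 CPM in D2 nuclei (log2 fold change 2.10). They also included the ion channel gene Asic4, which is also in the patch list (2.63), the ryanodine receptor Ryr1 (1.07), the transcription factor Pbx3 (0.92) and the kinase gene Prkca (0.64). Foxp2, a transcription factor of the speech and motor circuits, was at 944, 1129 and 1272 CPM in D1 nuclei and at 146, 222 and 258 CPM in D2 nuclei (log2 fold change 2.21, adjusted p = 2.67e-09). The dopamine receptor Drd3 was higher as well (log2 fold change 1.55).

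Among the lower genes, adenosine kinase Adk, which clears adenosine, was at 54.2, 80.3 and 122 CPM in D1 nuclei against 300.9, 390 and 509 CPM in D2 nuclei (log2 fold change −2.23). The cholinergic genes Slc5a7, the choline transporter, and Chat, which makes acetylcholine, had 14 and 52 UMIs over all D1 nuclei and 440 and 374 UMIs over all D2 nuclei. The D2 nuclei were not sub-clustered, and the part in these counts of nuclei that are not MSNs was not tested. Large differences were also seen in genes that lie near the receptors of the rule. Ankk1, 7016 bases from Drd2 on chromosome 9, had 1 UMI in D1 and 210 in D2 nuclei, and Upb1, 66330 bases from Adora2a on chromosome 10, had 15 and 1060 UMIs. Sfxn1, named above among the D1 genes, lies 16163 bases from Drd1 on chromosome 13. Whether reads were shared between these neighbours was not tested.

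Immediate-early genes are switched on by neurons soon after activity. Of the 14 genes of this list, 10 were called higher in D1 nuclei and 0 lower, against 4.79% and 5.74% of all genes, with a median log2 fold change of 0.86 against −0.00139 over all genes. Junb was at 37.9, 79.3 and 168 CPM in D1 nuclei and at 14.3, 24.4 and 58.8 CPM in D2 nuclei (log2 fold change 1.53 ± 0.08, SE, adjusted p = 1.02e-12). Egr1 was at 50.3, 67.6 and 118 CPM against 17.0, 27.7 and 45.5 CPM (log2 fold change 1.36), and Arc, which shapes synapses, had a log2 fold change of 1.56. In all 10 libraries each of the 3 was higher in D1 than in D2 nuclei of the same library. The genes not called were Fosb, Nr4a1, Nr4a3 and the neurotrophin gene Bdnf, which had a log2 fold change of −0.88 and an adjusted p of 0.0576.

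Of 22 tested genes of dopamine and cyclic AMP signalling, 9 were higher and 3 lower in D1 nuclei, with a median log2 fold change of 0.11, where 4.79% of all genes were higher and 5.74% lower. Ppp1r1b was at 47.3, 65.0 and 117 CPM against 23.2, 40.9 and 98.0 CPM (log2 fold change 0.42), and Adcy5 and the G protein regulators Rgs2 and Rgs4 were higher by 0.32, 0.65 and 0.59 on the log2 scale. The phosphodiesterase Pde4b (−0.48), the G protein subunit Gnb5 (−0.41) and Arpp19 (−0.32) were lower. Among 15 modulatory receptors, 1 was called higher and 4 lower, among them the serotonin receptor Htr2c (−0.68) and the substance P receptor Tacr1 (−0.74). Of 15 ionotropic glutamate receptor genes 1 was higher and 2 lower, of 14 GABA genes 0 and 1, and of 23 ion channel genes 2 and 4. None of 16 tested genes of amyloid and tau processing was called. No gene of 14162 had a difference between D1 and D2 nuclei that depended on genotype by edgeR or DESeq2 (percent called 0, 571 genes at an unadjusted p under 0.05).

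**Figure D4:**
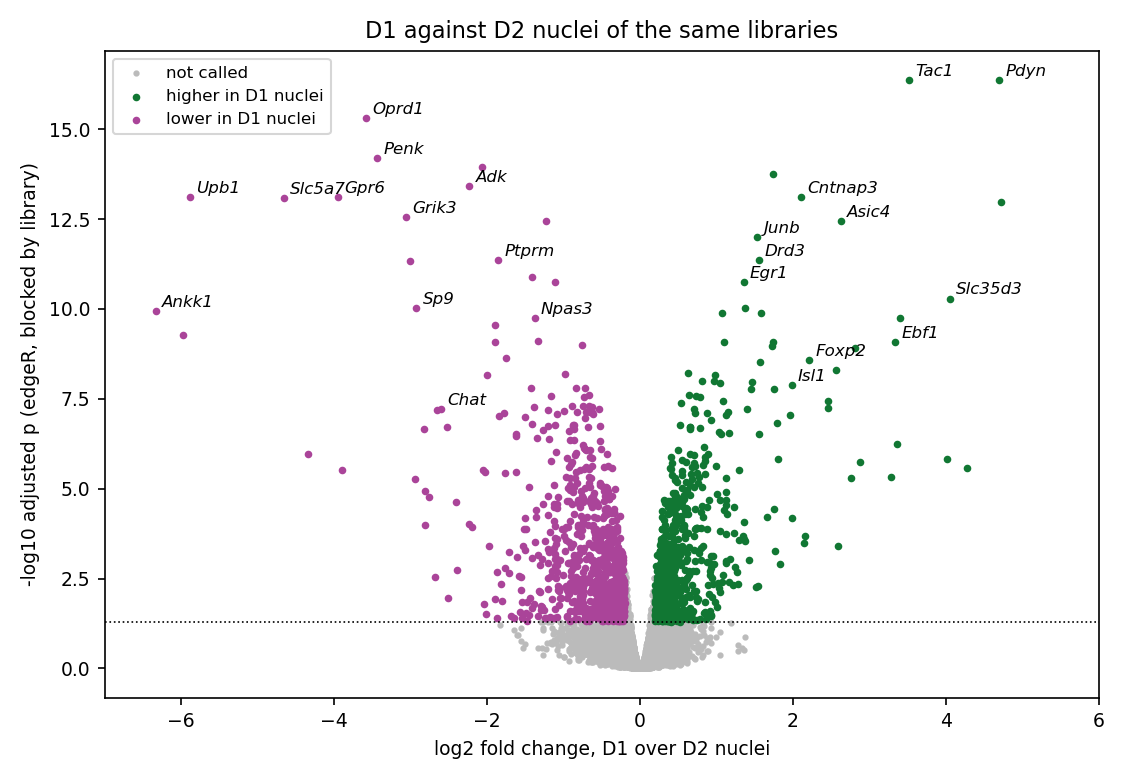
Difference between D1 and D2 nuclei for 14162 genes, as log2 fold change (x axis) against −log10 of the edgeR adjusted p (y axis), with library as a block and 12 libraries. Peptide, receptor and transcription factor genes are named, with Tac1 and Pdyn on the right and Penk and Oprd1 on the left.

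The comparison of 3xTg-AD with WT mice at 6 months asked how the D1 nuclei differed by genotype, with 3 libraries each. Of 11659 genes tested, 20 (0.172%) were called, 2 higher (0.0172%) and 18 lower (0.154%) in 3xTg-AD mice. The genes of the transgene loci were examined first. A 3′ count cannot tell the human transgenes of this strain from the mouse genes where their sequences match. App, Mapt and the promoter's own gene Thy1 had log2 fold changes of 0.04, −0.11 and 0.08, and none of the 3 was called by edgeR, at unadjusted p values of 0.694, 0.249 and 0.697. The labels were therefore not checked by these genes.

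The rule that named 12 genes at 6 months asked that the genotypes did not overlap in D1 nuclei, so their lack of overlap, seen in 12.5% of all genes tested, was fixed by that choice. Cfap54, a gene of cilia at positions 92775619 to 93081618 of chromosome 10 (GRCm38), was at 164, 155 and 122 CPM in WT and at 67.2, 53.0 and 51.2 CPM in 3xTg-AD mice (log2 fold change −1.36 ± 0.15, SE, edgeR adjusted p = 0.00397). Svil, which codes for an actin-binding protein, was at 40.3, 53.8 and 49.6 CPM against 11.6, 15.5 and 15.6 CPM (log2 fold change −1.68, edgeR adjusted p = 0.00365). The zinc finger gene Zfp943 was at 47.4, 58.1 and 53.7 CPM against 22.4, 22.0 and 20.6 CPM (log2 fold change −1.29, edgeR adjusted p = 0.00461).

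Col5a2, a fibrillar collagen chain, was at 9.49, 12.1 and 26.3 CPM in WT and at 0.829, 1.63 and 0.671 CPM in 3xTg-AD mice (log2 fold change −4.04, edgeR adjusted p = 0.0204). Bet1, which codes for a vesicle transport protein, was at 41.3, 49.5 and 52.5 CPM against 19.9, 7.75 and 16.8 CPM (log2 fold change −1.72, edgeR adjusted p = 0.0221). The chemokine gene Ccl27a fell by 2.47 on the log2 scale, the dynein gene Dnah6 by 2.90, the receptor gene Oscar by 4.24, the splicing factor Rnps1 by 0.88, and AC149090.1 by 2.27. Higher in 3xTg-AD mice were the antisense gene Arhgap33os, at 0.474, 0.434 and 0.342 CPM in WT and 9.12, 6.53 and 6.93 CPM in 3xTg-AD mice (log2 fold change 4.10, edgeR adjusted p = 0.00461), and the zinc finger gene Zfp760 (log2 fold change 2.57, edgeR adjusted p = 0.0441). Reads of Arhgap33os and of the gene on the opposite strand cannot be told apart where counting ignored strand.

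These differences were also seen in other inhibitory nuclei of the same libraries, for some genes at a smaller size. In D2 nuclei all 12 genes kept their order at 6 months without overlap, and in other inhibitory nuclei 11 of 12 did, with Dnah6 overlapping. Of all 11659 genes tested, 10.6% did not overlap in either direction in D2 nuclei and 17.9% in other inhibitory nuclei. Cfap54 was at 94.1 ± 1.88 CPM in WT and 36.0 ± 2.87 CPM in 3xTg-AD mice in the other inhibitory nuclei (SD, n = 3). Col5a2 was at 44.1 ± 6.83 against 1.63 ± 1.31 CPM in D2 nuclei, and at 10.3 ± 3.68 against 4.84 ± 0.450 CPM in other inhibitory nuclei. The log2 ratio of means in D1 and in other inhibitory nuclei was −1.75 and −0.356 for Svil, and 2.36 and 0.75 for Zfp760. For Dnah6 it was −2.69 and −0.475, and for Rnps1 −0.899 and −0.588. For Col5a2 it was −3.94 and −1.08, for Arhgap33os 4.17 and 4.53, and for Bet1 −1.69 and −1.90. The remaining named genes had more similar ratios, such as −1.37 and −1.39 for Cfap54. The nuclei of a library share their mouse, so they are no further replicates. At 12 months, 3 of the 12 genes kept their order without overlap in D1 nuclei, Cfap54, Col5a2 and Bet1. For 7 the groups overlapped, and Zfp943 and Dnah6 had the opposite order without overlap, where Dnah6 had no UMI in the 3 WT libraries, which include replicates 4 and 12. Of all 11659 genes, 18.2% did not overlap in either direction in D1 nuclei at 12 months.

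**Figure D5:**
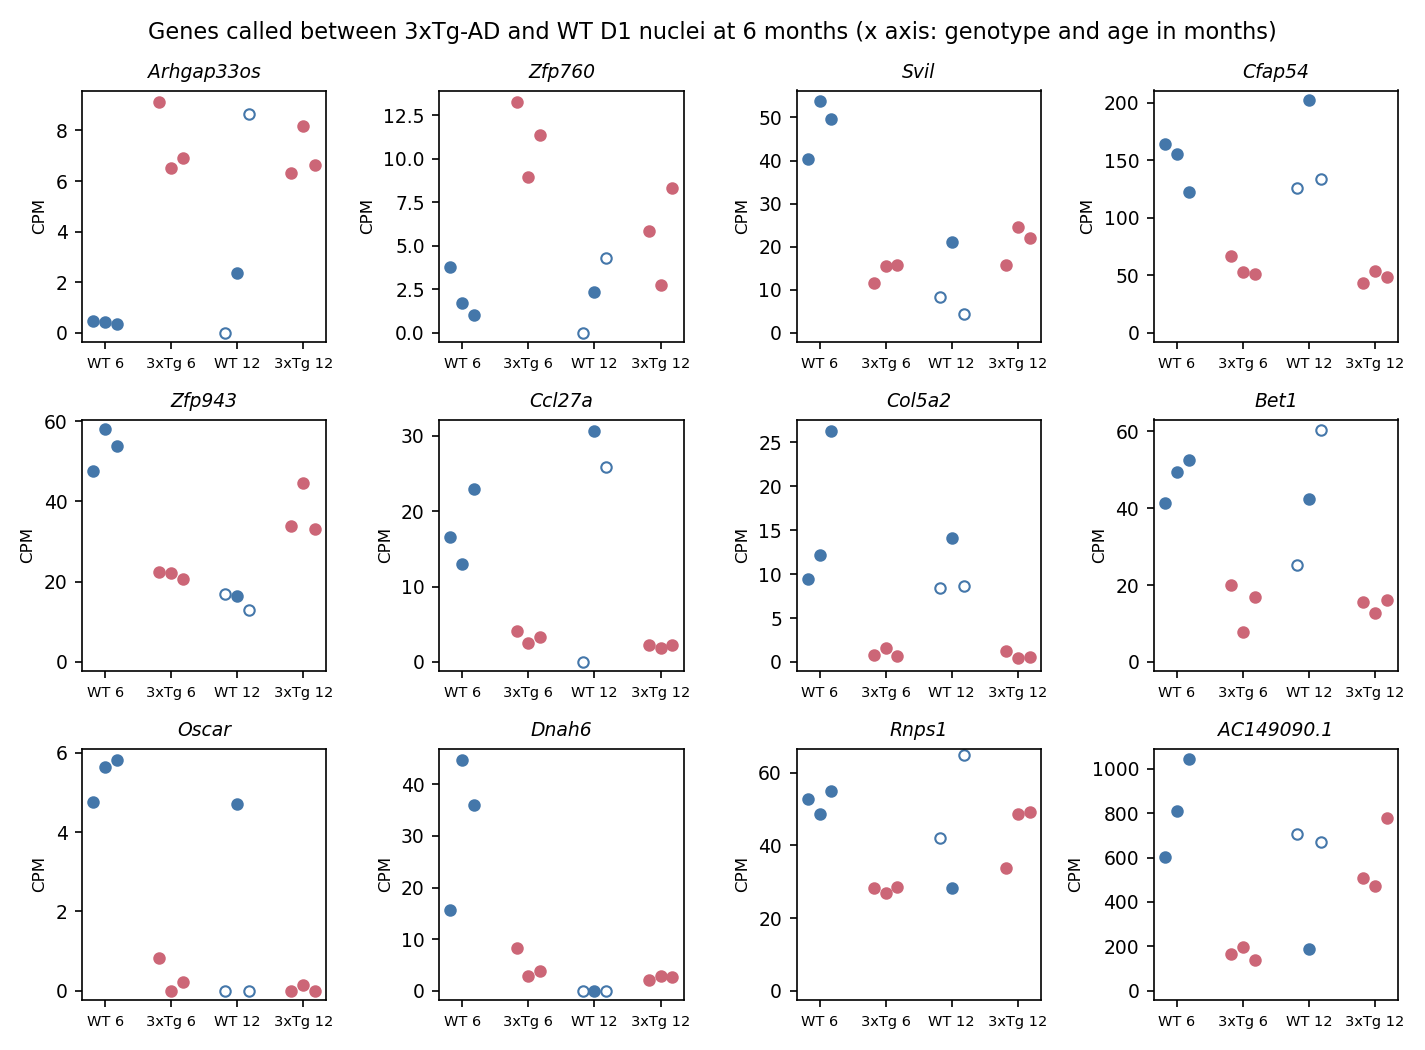
Levels in D1 nuclei of the 12 genes named at 6 months (CPM, y axis) by genotype and age in months (x axis). Points are libraries, and open points are WT 12-month replicates 4 and 12. At 6 months no 3xTg-AD point overlaps the WT points, as the choice of the genes asked.

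No gene list had a called member at 6 months. All 13 tested immediate-early genes had log2 fold changes below 0 in 3xTg-AD mice, with a median of −0.68 against −0.000634 over all genes, and 5 of them were below 0.05 in the unadjusted p, as were 7.19% of all genes tested. Junb was at 37.9, 88.1 and 168 CPM in WT and at 84.6, 65.3 and 74.0 CPM in 3xTg-AD mice, so the groups overlapped. The 14 shared MSN genes outside the rule had a median of −0.11, with 12 below 0, and the 22 tested dopamine and cyclic AMP genes outside the rule −0.14, with 15 below 0. The share of sub-clusters 1 and 3 also varied between these libraries, as given above, and its part in these medians was not tested.

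At 12 months 0 of 9551 genes (percent called 0) were called between the genotypes by edgeR, with 1014 genes at an unadjusted p under 0.05 and 58 called by DESeq2. WT replicates 4 and 12 bore on this comparison. With all libraries the 14 shared MSN genes outside the rule had a median log2 fold change of 1.12, all 14 above 0, and without those 2 libraries the median was 0.14 with 9 of 14 above 0. The immediate-early genes had medians of 0.99 and 0.04. Without the 2 libraries WT replicate 8 stood alone for WT, so the fit was made over both ages and the spread of replicate 8 was taken to be that of the other libraries. In that fit 2 of 13505 genes (0.0148%) were called, Cfap54 (log2 fold change −1.999, edgeR adjusted p = 0.0169) and Pomc (−5.27, edgeR adjusted p = 0.0485), where Pomc rested on 49.5 CPM in replicate 8. In the retained sub-clusters, 1 of 12459 genes (0.00803%) was called, Cfap54, and it was lower (−2.09, edgeR adjusted p = 0.0218). Pomc was named after its values were seen. Cfap54 was at 126, 203 and 134 CPM in WT replicates 4, 8 and 12 and at 43.6, 53.4 and 48.7 CPM in 3xTg-AD replicates 2, 6 and 10.

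The effect of genotype differed between the ages for 3 of 12236 genes (0.0245%), by edgeR. DESeq2 called 47. Zfp943, lower in 3xTg-AD mice at 6 months, was at 33.9, 44.6 and 33.2 CPM in 3xTg-AD and at 16.8, 16.5 and 13.0 CPM in WT mice at 12 months (difference of log2 fold changes 2.73, adjusted p = 0.0196). Gm1604a was at 75.5, 96.6 and 82.1 CPM in WT mice at 12 months and at 157 to 221 CPM in the other 9 libraries (1.56, adjusted p = 0.0323). The potassium channel gene Kcnk2 was at 83.9, 58.9 and 47.5 CPM in WT mice at 12 months (2.09, adjusted p = 0.0323). Without WT replicates 4 and 12 the differences were 2.54 ± 0.45 for Zfp943, 1.31 ± 0.23 for Gm1604a and 2.01 ± 0.38 for Kcnk2 (SE), with an adjusted p of 0.313 for each of the 3, and the 1 call was AC149090.1 (3.94, adjusted p = 0.0174), which was named after its value was seen. AC149090.1 was at 705, 188 and 670 CPM in WT replicates 4, 8 and 12 and at 506, 470 and 778 CPM in 3xTg-AD replicates 2, 6 and 10 at 12 months, so that call rested on WT replicate 8.

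Between 6 and 12 months 1 of 12236 genes (0.00817%) was called in WT mice, Gm1604a (log2 fold change −1.34, edgeR adjusted p = 0.0254), and without replicates 4 and 12 its log2 fold change was −1.09 and it was not called (adjusted p = 0.261). In 3xTg-AD mice 3 genes (0.0245%) were called, 1 higher (0.00817%) and 2 lower (0.0163%). In the retained sub-clusters 3 of 12459 genes (0.0241%) were called, 1 higher (0.00803%) and 2 lower (0.0161%). Krt12, a keratin gene, fell by 5.42 on the log2 scale (edgeR adjusted p = 0.017). It had 6, 13 and 19 UMIs in 3xTg-AD replicates 1, 5 and 9 at 6 months. In replicates 2, 6 and 10 at 12 months it had 1, 0 and 0 UMIs, so the fitted size of the fall is uncertain. A830036E02Rik had 158 UMIs of 8131200 at 6 months and none of 14931316 at 12 months in 3xTg-AD mice, so it was at least 96.7-fold lower against a floor of 3 counts over the group. It also had no UMI in D1 nuclei of WT mice at 12 months. This gene and Krt12 overlap on opposite strands of chromosome 11, so their reads cannot be told apart where counting ignored strand. A930015D03Rik was at 32.3, 26.5 and 37.6 CPM at 6 months and at 62.0, 107 and 86.3 CPM at 12 months (log2 fold change 1.39, edgeR adjusted p = 0.0468). The 2 Rik genes were named after their values were seen.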

How the data were processed

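Nuclei of 12 libraries were counted by the authors with Cell Ranger 6.1.1 on mm10, per the submitters' processing notes, and the values deposited are raw UMI counts per gene and nucleus. Whether intronic reads were counted is not given in the sources used here. The study removed free RNA with soupX, which was not done here. Some items are not reported here.

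Nuclei with 500 to 10000 genes were kept. D1 and D2 counts were summed per library, and CPM is the sum per 1000000 UMIs. Doublets were called with Scrublet (expected 8%) and kept. Libraries with at least 10 nuclei entered the fits. Genes were tested with the quasi-likelihood test of edgeR 4.0.16 (R 4.3.3, TMM), and a call needed a Benjamini-Hochberg adjusted p below 0.05 and a log2 fold change beyond 0.2 in size. The study used the Wald test of DESeq2, which was run as an alternative (1.42.0). The 6-month and 12-month contrasts were each fitted on the libraries of 1 age. D1 against D2 nuclei were fitted with library as a block. For shares, exact permutation tests (two-sided) were used. Sub-clusters came from scanpy 1.11.5 (2000 variable genes, 30 components, 15 neighbours, Leiden resolution 0.5). Promoters are from RefSeq, GRCm38.p6. The fits were also run on simulated counts with set changes, and the outcome is not given here.

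Named genes were the members of the gene lists, the 10 called genes per direction with the smallest adjusted p whose groups did not overlap (15 for D1 against D2, with the same sign in every library, without Gm and Rik models), and every gene called in genotype by age. The members and lists were chosen with earlier results of these data known. Nothing in the labels tells whether libraries of a group were prepared together, and p-values measure the spread between libraries. Intervals cover counting error only. Alternatives were another normalization, no filter on low counts, DESeq2, stricter and looser rules, doublets left out, a minimum of 25 nuclei, thinning, another denominator, each replicate left out, and, chosen after seeing the data, leaving out the 6 sub-clusters with many doublets or low MSN genes.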

Additional observations from a re-analysis of the deposited data

Results flagged for a closer look

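The effect of genotype differed between 6 and 12 months in D1 nuclei for 3 genes by the interaction test of edgeR. The difference of the log2 fold changes was 2.73 for Zfp943, 1.56 for Gm1604a and 2.09 for Kcnk2. Zfp943 was lower in 3xTg-AD mice at 6 months and higher at 12 months, without overlap of the libraries at either age. For Gm1604a and Kcnk2 the groups overlapped at 6 months, and the 3 WT libraries at 12 months were below the 3 3xTg-AD libraries. In D2 nuclei of the same libraries the order at 12 months was the same for all 3 genes. The D2 nuclei of WT 12-month replicates 4 and 12 also had low summed MSN genes (1359 and 1717 CPM). In other inhibitory nuclei the order was the same for Gm1604a, while Zfp943 and Kcnk2 overlapped. In D1 nuclei at 12 months, 18.2% of 11659 genes did not overlap in either direction. That share was not computed for D2 or other inhibitory nuclei at this age. Without WT 12-month replicates 4 and 12, whose D1 nuclei were low in the shared MSN genes, the differences were 2.54, 1.31 and 2.01, and none of the 3 was called.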

How the results depend on the processing

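At 6 months, the count of 20 genes called between genotypes was 223 without a filter on low counts, 35 with DESeq2 and 12 with the stricter rule, and 2 to 38 with 1 library left out (38 without WT replicate 3, 10 without WT replicate 7, and 9, 7 and 2 without 3xTg-AD replicates 1, 5 and 9). At 12 months the count of 0 was 577 without a filter, 58 with DESeq2, 1 with the stricter rule, 2 with at least 25 nuclei per library, 5 with all libraries in 1 fit, 1 without the 6 sub-clusters with many doublets or low MSN genes (chosen after seeing the data), and 0 to 606 with 1 library left out (606 without WT replicate 8, which leaves the 2 libraries without an MSN profile). The counts of 1, 2 and 1 came from fits over both ages on 10 libraries, since 1 WT library was left at 12 months, so both choices changed together. For genotype by age, 3 became 501, 47, 1, 6, 1 and 1 without a filter, with DESeq2, with the stricter rule, without doublets, with at least 25 nuclei and without those sub-clusters, and 0 to 737 with 1 library left out (737 without WT 12-month replicate 8, 0 without WT replicates 4, 11 or 12 or 3xTg-AD replicates 1, 5 or 9, and 1 without WT replicate 3 or 3xTg-AD replicates 2, 6 or 10). For age in WT mice, 1 became 738, 161, 0, 2, 0 and 0 in the same order, and 0 to 1010 with 1 library left out (1010 without WT 12-month replicate 8, 3 without WT replicate 7, 2 without 3xTg-AD replicate 6, and 0 without WT replicates 3, 11 or 12 or 3xTg-AD replicates 1, 2, 5 or 9). For age in 3xTg-AD mice, 3 became 33 without a filter and 1 to 4 with 1 library left out (1 without WT replicate 11 or 3xTg-AD replicates 1, 5, 6, 9 or 10). The count of 1492 genes between D1 and D2 nuclei became 278 without the library block. The difference of D1 and D2 nuclei by genotype, 0, became 57 without a filter. The cause of these changes was not tested.

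The difference in D1 share at 6 months was −1.35 to 0.201 percentage points with 1 library left out, and reversed without WT replicate 11. Genotype by age for the share was 3.14 to 5.42 with 1 library left out, and 11.7 among inhibitory nuclei, where it passed 0.05. After thinning it was 0.834 and did not pass. The D1 part of D1 and D2 nuclei over both ages was 7.33 after thinning and no longer passed. For single named genes, 628 of the values of D1 against D2 nuclei stayed on their side of the threshold and 1 did not, for genotype at 6 months 149 did and 36 did not, for genotype by age 27 did and 36 did not, and for age in 3xTg-AD mice 12 did and 8 did not, with no reversal. No paired analysis was possible because the groups compared share no replicate numbers. D1 and D2 nuclei of 1 library were paired by library.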
